A study of Mus musculus with 4 samples.

Results

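Nuclear receptors are transcription factors that bind DNA and, in many cases, a small lipid-soluble ligand. The genes described here are 40 mouse nuclear receptor genes, found by their gene symbols in a table of 53379 genes. They cover the receptors for thyroid hormone, retinoids, oxysterols, bile acids, vitamin D, xenobiotics, fatty acids, oestrogen, corticosteroids and progesterone, and the orphan receptors related to them. The Nr4a, Rev-erb and ROR receptors are not on the list, except that Rorb is. RNA was sequenced from group 3 innate lymphoid cells (ILC3s) of the small intestinal lamina propria, with 2 libraries of Brg1-sufficient cells and 2 of Brg1-deficient cells. Smarca4 is the gene of Brg1, an ATPase that drives SWI-SNF chromatin remodelling, and the comparison asks which genes depend on it within ILC3s. Brg1-sufficient cells came from Thy1.2 donors and Brg1-deficient cells from Thy1.1Thy1.2 donors that also carried a Cre transgene, and the donors of both groups carried floxed Smarca4 and lacked Rag1. Equal numbers of bone marrow cells of both donors were given together to sub-lethally irradiated Rag2-/-Il2rg-/- hosts, which lack lymphocytes and innate lymphoid cells of their own. Cells were sorted as Thy1.2 high and CD45 low 6 to 7 weeks later, and Thy1.1 told the 2 origins apart. The congenic marker and the Cre transgene differ between the groups together with Brg1, and their effects cannot be told apart from its loss. Donor age and the number of hosts per library are not given in the sources used here.

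Most receptors of this family act in pairs or as dimers of themselves. Retinoic acid, thyroid hormone, vitamin D and liver X receptors and the PPARs pair with a retinoid X receptor on DNA, whereas steroid receptors wait in complex with chaperones until a hormone arrives. Bound receptors recruit coactivators, and several of them hold corepressors when no ligand is present. In the intestine, retinoic acid made from dietary vitamin A is known to support ILC3s and the homing of lymphocytes to the gut.

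Values are listed as FPKM, reads scaled by transcript length and by library size, so levels of different genes can be roughly compared. Smarca4 stood at 17.1 and 16.7 FPKM in Brg1-sufficient cells, against 9.98 and 9.03 FPKM in Brg1-deficient ILC3s, 56.2% of the control mean. All 12 genes of an ILC3 list, with Il7r, Il23r, Kit and Il22 among them, were above 1 FPKM in all 4 libraries. The sorted values were nearly the same in the libraries (99.3% of ranks above 1 FPKM lay within 1%), and Il22 was listed at 10407.92 FPKM in library 2 of both groups. Scaling by library size alone does not give this. The values therefore look adjusted to 1 shared distribution, a step that the authors do not describe. No difference in total RNA can be seen in them, and no depth is known. In bulk RNA of sorted cells, fewer cells of a type and less RNA per cell cannot be told apart. Differences below are of log2(FPKM + 1), Brg1-deficient minus Brg1-sufficient, which understates the change of low genes. Genes with a mean above 1 FPKM in either group were tested with limma, 14739 in all.

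Of the 40 receptor genes, 16 had a mean above 1 FPKM in either group. Nr1h2, which encodes the oxysterol receptor LXRβ, had the highest level, from 67.4 to 103 FPKM in the 4 libraries. Next came Nr3c1, the glucocorticoid receptor gene (24.4 to 46.8 FPKM), Rara, which encodes retinoic acid receptor α (16.8 to 26.3 FPKM), and Nr2c2, which encodes the orphan receptor TR4 (11.9 to 20.1 FPKM). These 4 genes made up between 74.1% and 78.1% of the summed FPKM of all 40 in each library. Thra (7.71 to 9.72 FPKM) and Rxrb (5.82 to 6.72 FPKM) followed, and the other 10 stayed at or below 5.82 FPKM. In the order of mean levels, the ranges of neighbours did not meet between Nr1h2 and Nr3c1, between Nr2c2 and Thra, or between Thra and Rxrb, and overlapped in the other 12 pairs. For comparison, Rora, which is not on the list, stood far higher, at 486 to 784 FPKM.

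**Figure D1:**
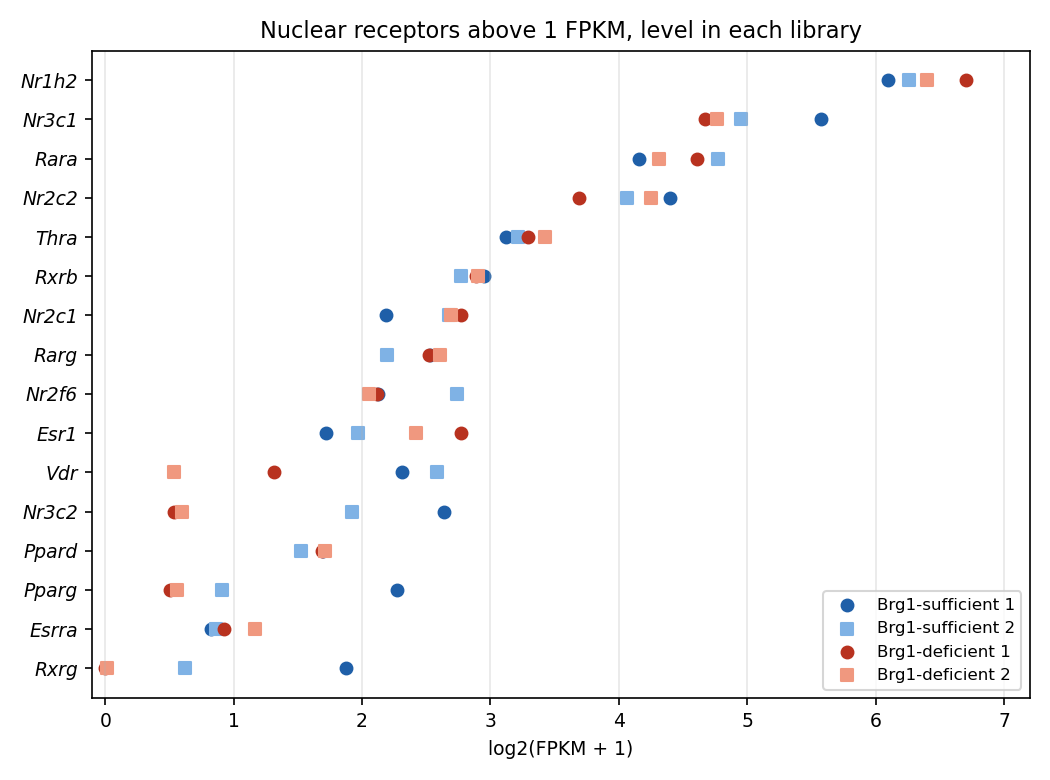
Level of the 16 nuclear receptor genes with a mean above 1 FPKM in either group, as log2(FPKM + 1) on the horizontal axis, with 1 point for each library (blue, Brg1-sufficient; red, Brg1-deficient; circles, library 1; squares, library 2). Genes are ordered by their mean over the 4 libraries, and Nr1h2 lies above all others, while the points of Vdr, Nr3c2, Pparg and Rxrg spread over the lower part of the axis with the red points to the left.

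None of the 16 genes passed an adjusted p under 0.05 (limma with Benjamini-Hochberg adjustment over all genes tested). Over all 14739 genes the share that passed was 0.224% lower and 0.0814% higher in Brg1-deficient ILC3s. At an unadjusted p under 0.05, 2 receptor genes were lower (Vdr and Nr3c2) and 1 was higher (Esr1), where 6.47% of all genes were lower and 6.12% higher. Both Brg1-deficient libraries lay below both Brg1-sufficient libraries for 6 genes and above them for 5, and for the other 5 the groups overlapped. Over all genes tested, 20.2% lay below and 24.4% above. When the fit also took a term for the replicate number, 0 receptor genes passed an adjusted p under 0.05, and 1.68% of all genes were then called lower and 1.02% higher. The median difference of the 16 genes was 0.019, against 0.028 over all genes tested. These counts are a description, since 5 of the 16 passed the limit of 1 FPKM in 1 group only: Vdr, Nr3c2, Pparg and Rxrg in Brg1-sufficient ILC3s and Esrra in Brg1-deficient ILC3s. The lowest of them, Esrra, reached a group mean of 1.08 FPKM, and the highest gene left out, Rxra, reached 0.87 FPKM.

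**Figure D2:**
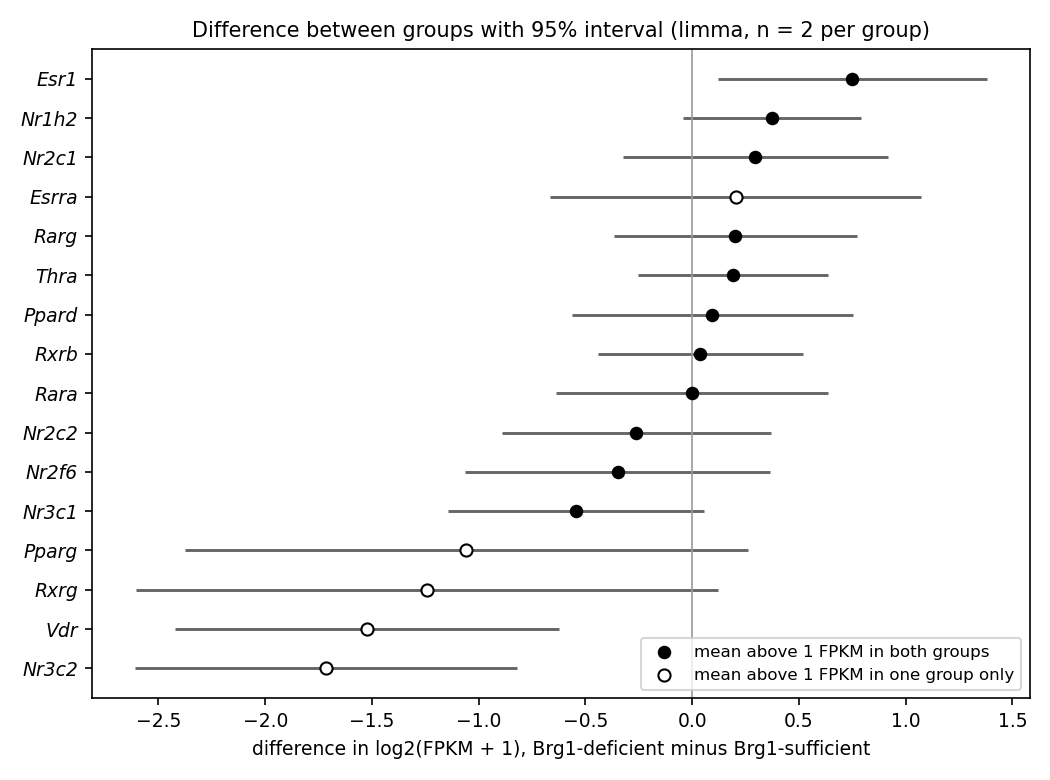
Difference in log2(FPKM + 1) between Brg1-deficient and Brg1-sufficient ILC3s for the 16 tested nuclear receptor genes, with bars for the 95% interval from limma (2 libraries per group) and open points for genes with a mean above 1 FPKM in one group only. The unadjusted intervals of Nr3c2 (-2.61 to -0.82), Vdr (-2.42 to -0.62) and Esr1 (0.12 to 1.38) leave out 0, and those of the other 13 genes include it.

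The vitamin D receptor gene Vdr encodes the receptor for the hormonal form of vitamin D. It stood at 3.97 and 5.0 FPKM in Brg1-sufficient cells, against 1.49 and 0.45 FPKM in Brg1-deficient ILC3s. Both Brg1-deficient libraries lay below both controls, and their mean was 21.6% of the control mean. The difference in log2(FPKM + 1) was -1.52 (standard error 0.357, unadjusted p = 0.00674, adjusted p = 0.184 from limma). The difference was -1.66 without Brg1-sufficient library 1 and -1.39 without Brg1-sufficient library 2. It moved more with the Brg1-deficient library left out, to -1.91 without library 1 and -1.13 without library 2. Of 6 genes for vitamin D activation, breakdown and uptake, 1 was tested. This was Cyp2r1, a vitamin D 25-hydroxylase gene, at 0.66 and 0.97 FPKM in Brg1-sufficient and 1.54 and 1.67 FPKM in Brg1-deficient ILC3s (adjusted p = 0.578 from limma). Cyp24a1, the vitamin D catabolic enzyme gene that the receptor itself induces, was between 0.05 and 0.15 FPKM in all 4 libraries. The related xenobiotic receptor genes Nr1i2 (PXR) and Nr1i3 (CAR) stayed at or below 0.58 FPKM. Vdr is also expressed in intestinal epithelium. The summed level of 10 epithelial genes was 5.95 and 7.02 FPKM in Brg1-sufficient and 20.7 and 17.1 FPKM in Brg1-deficient libraries. Most of the sum in Brg1-deficient libraries came from Krt18 and from Krt8, which passed the limit of 1 FPKM through that group only. Both were higher there at an unadjusted p under 0.05 (limma). Epcam went the other way, at 1.5 and 1.79 FPKM in Brg1-sufficient and 0.68 and 0.54 FPKM in Brg1-deficient libraries, and so did Cdh1, at 0.56 and 0.54 FPKM against 0.20 and 0.49 FPKM. Fabp1, Krt19 and Krt20 were listed at 0 in at least 1 library. The part of epithelial RNA in the values of Vdr was not tested.

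Both corticosteroid receptor genes had lower values in Brg1-deficient ILC3s, neither with an adjusted p under 0.05. Nr3c2 encodes the mineralocorticoid receptor, which binds aldosterone and glucocorticoids. It stood at 5.24 and 2.79 FPKM in Brg1-sufficient cells, against 0.45 and 0.51 FPKM in Brg1-deficient ILC3s. Its exons share 247 of 6474 bases with the antisense gene Gm10649, which was at 0.12 to 0.44 FPKM. The Brg1-deficient libraries were close to each other and their mean was 12.0% of the control mean. The difference was -1.72 (standard error 0.355, unadjusted p = 0.00388, adjusted p = 0.148 from limma), the largest decrease among the 16 genes on this scale. Leaving out 1 library in turn gave a difference between -2.08 and -1.36, and its unadjusted p reached 0.0544 without Brg1-deficient library 1. Nr3c1, the glucocorticoid receptor gene, was at 46.8 and 29.9 FPKM in Brg1-sufficient and 24.4 and 26.2 FPKM in Brg1-deficient ILC3s. The groups did not overlap, but the Brg1-sufficient libraries differed by more than the lower one differed from either Brg1-deficient library. The difference of Nr3c1 was -0.54 (95% interval -1.15 to 0.06, adjusted p = 0.44 from limma). It was -0.23 without Brg1-sufficient library 1 and -0.86 without Brg1-sufficient library 2. Nr3c2 made up 10.1% and 8.53% of the summed FPKM of Nr3c1, Nr3c2 and the progesterone receptor gene Pgr in Brg1-sufficient ILC3s and 1.79% and 1.90% in Brg1-deficient ILC3s. Pgr itself stayed at or below 0.20 FPKM.

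Among the genes of glucocorticoid handling, response and chaperoning, the largest difference was that of Hsd11b1. It encodes the enzyme that regenerates active glucocorticoid from its inactive form. Hsd11b1 stood at 107 and 79.2 FPKM in Brg1-sufficient cells, against 284 and 249 FPKM in Brg1-deficient ILC3s. Both Brg1-deficient libraries were more than 2 times as high as either control. The difference was 1.52 (standard error 0.191, unadjusted p = 0.000354, adjusted p = 0.0675 from limma, and 0.00276 when the fit took the replicate number as a block). Hsd11b2, which encodes the enzyme for the reverse step, stayed at or below 0.34 FPKM. Of 8 genes known to respond to the glucocorticoid receptor, all tested, 1 was higher and 0 were lower at an unadjusted p under 0.05. This was Tsc22d3, which encodes the anti-inflammatory protein GILZ, at 248 and 209 FPKM in Brg1-sufficient and 395 and 307 FPKM in Brg1-deficient ILC3s (difference 0.61, adjusted p = 0.266 from limma). Fkbp5, another gene of that list and also a steroid receptor co-chaperone, was at 4.92 and 4.86 FPKM against 6.99 and 5.85 FPKM (adjusted p = 0.575 from limma). None of 8 chaperone genes of steroid receptors, Hsp90aa1 and Hsp90ab1 among them, passed even the unadjusted limit.

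Esr1, which encodes oestrogen receptor α, was the receptor gene with the largest increase. It stood at 2.29 and 2.92 FPKM in Brg1-sufficient cells, against 5.81 and 4.36 FPKM in Brg1-deficient ILC3s. Both Brg1-deficient libraries lay above both controls, and their mean was 195% of the control mean. The difference was 0.75 (standard error 0.251, unadjusted p = 0.0276, adjusted p = 0.325 from limma). No 3 of the 4 libraries kept it at an unadjusted p under 0.05, with values from 0.0715 to 0.174 when 1 library was left out. Esr2, the gene of oestrogen receptor β, stayed at or below 0.16 FPKM. The oestrogen-related receptors, orphan receptors tied to mitochondrial metabolism, were low. Esrra was at 0.77 and 0.82 FPKM in Brg1-sufficient and 0.90 and 1.25 FPKM in Brg1-deficient ILC3s, Esrrg lay between 0.21 and 0.90 FPKM, and Esrrb stayed at or below 0.15 FPKM. The reads of Esrra may be shared, since 73 of its 4387 exonic bases lie opposite exons of Trmt112, which was at 68.3 to 75.7 FPKM, and the counting is not stated to use strand.

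The sequences before the starts of Vdr, Nr3c2 and Esr1, the 3 receptor genes with an unadjusted p under 0.05, are shown because the first pair was lower and the last was higher. They are RefSeq promoter windows on GRCm38.p6, printed 5′ to 3′ on the gene's strand up to the first base that GENCODE M21 counts as exonic. Capitals mark GC boxes, GGGCGG on either strand. The genes span chr15:97854425-97910630 (Vdr, minus strand), chr8:76899442-77245012 (Nr3c2, plus strand) and chr10:4611593-5005614 (Esr1, plus strand) in GENCODE M21. The stretches printed are chr15:97908311-97908546 for Vdr, chr8:76902080-76902287 for Nr3c2 and chr10:4709908-4710154 for the second of 2 Esr1 starts, whose first window is not printed. All 3 stretches lie inside these gene spans, before starts downstream of the gene's first base, and not upstream of the whole gene.
Vdr: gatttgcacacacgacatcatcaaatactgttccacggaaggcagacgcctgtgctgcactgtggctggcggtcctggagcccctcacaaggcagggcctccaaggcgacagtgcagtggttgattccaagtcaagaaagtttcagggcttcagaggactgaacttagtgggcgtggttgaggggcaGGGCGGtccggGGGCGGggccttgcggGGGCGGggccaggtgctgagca
Nr3c2: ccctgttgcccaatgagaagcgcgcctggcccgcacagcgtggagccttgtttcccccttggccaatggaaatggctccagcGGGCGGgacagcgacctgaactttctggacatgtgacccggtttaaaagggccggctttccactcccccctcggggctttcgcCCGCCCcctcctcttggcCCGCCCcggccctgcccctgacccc
Esr1: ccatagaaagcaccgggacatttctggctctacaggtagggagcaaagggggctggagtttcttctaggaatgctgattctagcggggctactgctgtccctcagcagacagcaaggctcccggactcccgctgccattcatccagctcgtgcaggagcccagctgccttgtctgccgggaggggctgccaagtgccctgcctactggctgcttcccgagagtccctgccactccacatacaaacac

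The stretches of Vdr and Nr3c2 each held 3 GC boxes and that of Esr1 held 0. Of the other genes lower in both Brg1-deficient libraries, the 250 bases before a start held 7 for Nr2f6, up to 2 for Pparg and 0 for Rxrg. Of the other genes higher in both, they held 0 for Nr1h2 and Nr2c1 and 2 for Esrra. Where the groups overlapped, they held up to 4 for Rara, up to 3 for Rarg, Ppard and Rxrb, and 2 for Nr2c2. Nr3c1 and Thra had no window. A link between this motif and the differences was not tested. In the 250 bases before all 32851 RefSeq starts, 32.7% held this motif. Also searched on both strands was AGGTCA, the half-site of the receptors that pair with retinoid X receptors (14.0% of all starts). So were the steroid receptor half-site AGAACA (16.1%) and the RUNX motif TGTGGT (14.0%). None of them lay in the 250 bases before Vdr, Nr3c2 and Esr1, both Esr1 starts included. AGGTCA was present before 2 of 3 starts of Pparg and 1 of 2 starts of Rxrg. Such a match is a description of the letters and says nothing about binding. Of the 40 genes, 36 had at least 1 window, and the median GC content was 63.6% before the 23 starts of tested genes and 53.0% before the 34 starts of genes below the limit, where it was 52.4% over all starts.

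Pparg and Rxrg were high in a single library. Pparg encodes PPARγ, the fatty acid receptor of adipocytes and alveolar macrophages, also known from group 2 innate lymphoid cells (ILC2s). It was at 3.82 and 0.88 FPKM in Brg1-sufficient and 0.42 and 0.47 FPKM in Brg1-deficient ILC3s. Rxrg, which encodes retinoid X receptor γ, stood at 2.67 and 0.54 FPKM in Brg1-sufficient cells and was listed at 0 and at 0.01 FPKM in Brg1-deficient ILC3s. In both genes Brg1-sufficient library 1 stood far above the other 3, and the groups did not overlap. The differences were -1.06 for Pparg (standard error 0.524, adjusted p = 0.491 from limma) and -1.24 for Rxrg (standard error 0.542, adjusted p = 0.437 from limma), and the spread between the control libraries exceeded the difference of the group means. Without Brg1-sufficient library 1 neither gene reached a mean of 1 FPKM in either group.

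Several ILC2 genes were also highest in Brg1-sufficient library 1, but Areg was higher in library 2 (26.7 and 58.7 FPKM) and so was Hpgds (2.31 and 6.61 FPKM). Over a list of 9 ILC2 genes, the summed level was 366 and 208 FPKM in Brg1-sufficient and 116 and 141 FPKM in Brg1-deficient libraries, and 9, 7, 5 and 5 of the genes were above 1 FPKM. Brg1-sufficient library 1 was above library 2 for Il5 (24.8 and 1.64 FPKM), Ccr8 (51.7 and 8.41 FPKM), Klrg1 (42.2 and 11.04 FPKM) and Il1rl1 (3.88 and 0.60 FPKM). Of 8 ILC2 genes tested, 5 were lower and 1, Hpgds, was higher in Brg1-deficient libraries at an unadjusted p under 0.05. Ccr8, Il5 and Il1rl1 passed the limit of 1 FPKM through the Brg1-sufficient group only. Such genes could hardly come out higher, so the count and their p-values are a description. None of the 8 had an adjusted p under 0.05 in the main limma fit. Adding the replicate number to that fit lowered it to 0.00297 for Il17rb, 0.0038 for Ccr8 and 0.00844 for Klrg1, all lower genes. For Hpgds it became 0.00863. The remaining genes of the 8 stayed above 0.05 there, from 0.0518 for Il5 to 0.521 for Il1rl1. Il13 was listed at 0 in both Brg1-deficient libraries. A list of 7 T cell genes summed to 130.5 and 59.2 FPKM in Brg1-sufficient and 34.2 and 43.4 FPKM in Brg1-deficient libraries. The donors lacked Rag1, and the paper states that such mice have no T cells. Cd4 was the highest gene of this list in every library, at 43.6 and 32.8 FPKM in Brg1-sufficient and 25.2 and 19.8 FPKM in Brg1-deficient libraries. The part of ILC2s in the values of Pparg and Rxrg was not tested. Nr3c2 was also higher in Brg1-sufficient library 1 than in library 2, whereas Vdr was at 3.97 FPKM in library 1 and at 5.0 FPKM in library 2.

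**Figure D3:**
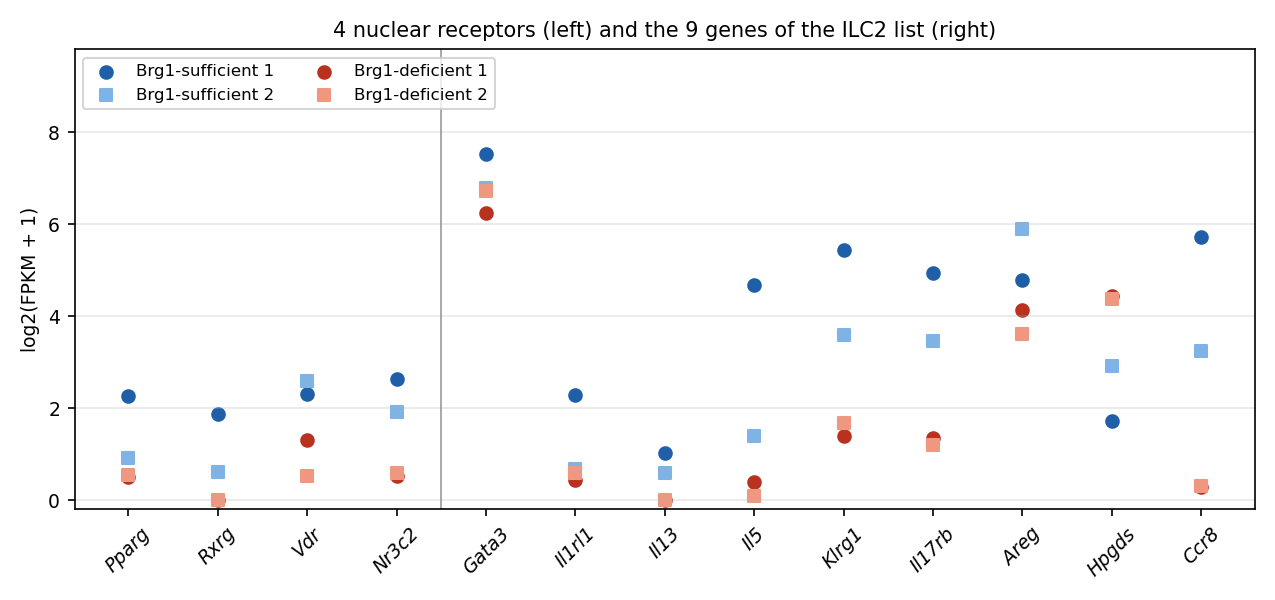
Levels of Pparg, Rxrg, Vdr and Nr3c2 (left of the line) and of 9 ILC2 genes (right of the line) as log2(FPKM + 1), with 1 point for each library. Brg1-sufficient library 1 (dark blue circles) is the highest for Pparg, Rxrg and Nr3c2 and for 7 of the ILC2 genes, but not for Vdr, Areg or Hpgds.

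The retinoid receptor genes with the higher levels had overlapping groups. Rara was at 16.8 and 26.3 FPKM in Brg1-sufficient and 23.4 and 18.9 FPKM in Brg1-deficient ILC3s, with a 95% interval of the difference from -0.64 to 0.64. Its sign turned with the pseudocount. Rarg, which encodes retinoic acid receptor γ, was at 4.77 and 3.58 FPKM against 4.75 and 5.08 FPKM (interval -0.37 to 0.77), and Rarb stayed at or below 0.20 FPKM. Rara made up between 77.7% and 87.4% of the summed retinoic acid receptor level. Rxrb was the main retinoid X receptor gene, at 6.72 and 5.82 FPKM in Brg1-sufficient and 6.40 and 6.50 FPKM in Brg1-deficient ILC3s (interval -0.44 to 0.52). Rxra was at 0.86 and 0.88 FPKM against 0.71 and 0.49 FPKM. The share of Rxrb in the retinoid X receptor sum was 65.6% and 80.4% in Brg1-sufficient and 90.0% and 92.9% in Brg1-deficient ILC3s. That of Rxrg was 26.0% and 7.46% against 0% and 0.143%. The share of Ppard, which encodes the widely expressed PPARδ, was 35.8% and 65.6% against 84.2% and 78.4% of the PPAR sum. That of Pparg was 61.1% and 30.9% against 15.8% and 16.2%. These shares repeat the values of Rxrg and Pparg, which were high in a single library, and are not separate results. Ppard itself was at 2.24 and 1.87 FPKM against 2.23 and 2.28 FPKM (interval -0.56 to 0.75), and Ppara stayed at or below 0.19 FPKM.

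**Figure D4:**
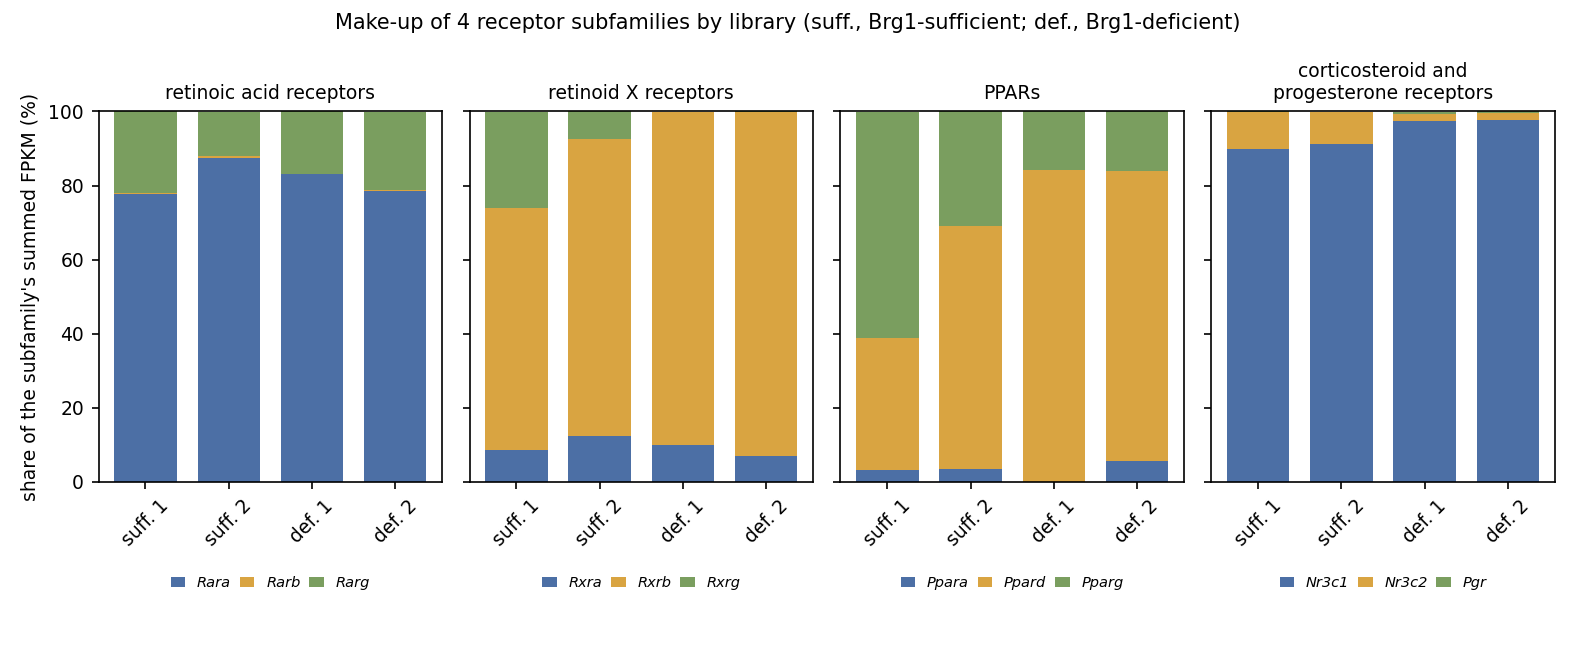
Share of each gene in the summed FPKM of its receptor subfamily (vertical axis, %) in the 2 Brg1-sufficient and 2 Brg1-deficient libraries, for retinoic acid receptors, retinoid X receptors, PPARs, and corticosteroid and progesterone receptors. Rara keeps most of its subfamily in every library, while the shares of Rxrg, Pparg and Nr3c2 are smaller in both Brg1-deficient libraries than in either Brg1-sufficient library.

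Of 15 genes that make, carry or break down retinoids, 4 were tested and 1 was lower at an unadjusted p under 0.05. Dhrs3, a retinaldehyde reductase gene that retinoic acid is known to induce, was at 235 and 226 FPKM in Brg1-sufficient and 135 and 161 FPKM in Brg1-deficient ILC3s. The groups were far apart for the spread within them, at a difference of -0.64 (standard error 0.146, adjusted p = 0.178 from limma). Aldh1a1, Aldh1a2 and Aldh1a3, whose products make retinoic acid, stayed at or below 1.07 FPKM. Of 8 targets of retinoic acid receptors and gut-homing genes, 6 were tested, 3 were lower and 0 were higher at that limit. The homing receptor gene Ccr9 was at 5.74 and 7.02 FPKM against 4.46 and 2.28 FPKM (difference -0.80, adjusted p = 0.385 from limma). Itga4, which encodes the α4 integrin chain, was at 20.8 and 19.8 FPKM against 14.4 and 12.2 FPKM (difference -0.58, adjusted p = 0.259 from limma), and the third was Dhrs3. The gene of its β7 partner, Itgb7, had overlapping groups, at 231 and 274 FPKM against 250 and 271 FPKM.

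Thra, which encodes thyroid hormone receptor α, was at 7.71 and 8.28 FPKM in Brg1-sufficient and 8.82 and 9.72 FPKM in Brg1-deficient ILC3s (95% interval of the difference -0.26 to 0.64). Thrb stayed at or below 0.26 FPKM. The end of Thra lies opposite Nr1d1, with 263 of its 4614 exonic bases shared, and Nr1d1 was at 151 and 159 FPKM against 266 and 211 FPKM, so reads of the pair may not be told apart. The deiodinase genes Dio1, Dio2 and Dio3, whose products activate or inactivate thyroid hormone, stayed at or below 0.90 FPKM.

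Nr1h2 was higher in both Brg1-deficient libraries, at 67.4 and 75.5 FPKM in Brg1-sufficient and 103 and 83.2 FPKM in Brg1-deficient ILC3s. Its groups were apart by less than the Brg1-deficient libraries differed from each other. The difference was 0.37 (95% interval -0.04 to 0.79, adjusted p = 0.445 from limma). Nr1h3, which encodes LXRα of macrophages and liver, was at 0.16 and 0.50 FPKM against 0.78 and 0.64 FPKM, and the bile acid receptor gene Nr1h4 stayed at or below 0.14 FPKM. Nr1h2 therefore made up at least 99.1% of this subfamily's sum in every library. Of 9 targets of liver X receptors, 8 were tested, and at an unadjusted p under 0.05 they went both ways. Abca1, which encodes a cholesterol exporter, was at 2.23 and 2.29 FPKM in Brg1-sufficient and 0.59 and 0.44 FPKM in Brg1-deficient ILC3s (difference -1.11, adjusted p = 0.248 from limma), and it too passed the limit through the control group only. Lpcat3, a phospholipid-remodelling enzyme gene, was at 27.3 and 27.6 FPKM against 16.6 and 19.0 FPKM (difference -0.60, adjusted p = 0.221 from limma). Smpdl3a, a phosphodiesterase gene, was at 76.0 and 95.7 FPKM against 153 and 172 FPKM (difference 0.92, adjusted p = 0.117 from limma, and 0.0244 when the fit took the replicate number as a block). Abcg1, which encodes another cholesterol exporter, was at 34.2 and 38.4 FPKM against 41.0 and 47.8 FPKM (adjusted p = 0.537 from limma). Apoe followed the library number rather than the group, at 134 and 284 FPKM against 87.3 and 244.5 FPKM, and so did the sum of 10 myeloid genes, at 156 and 341 FPKM against 115 and 304 FPKM.

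Among 10 targets of PPARs, 6 were tested and 1 was lower at an unadjusted p under 0.05. Plin2, which encodes a lipid droplet coat protein, was at 87.7 and 99.6 FPKM in Brg1-sufficient and 52.5 and 58.5 FPKM in Brg1-deficient ILC3s. The groups were clearly apart, with a difference of -0.74 (standard error 0.148, unadjusted p = 0.00324, adjusted p = 0.139 from limma). Of 4 oxysterol enzyme genes 2 were tested, and neither passed the unadjusted limit. Ch25h, which encodes cholesterol 25-hydroxylase, was listed at 0 in both Brg1-sufficient libraries and at 0.36 FPKM in both Brg1-deficient libraries.

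The orphan receptors were spread around their controls. Nr2c2 was at 20.1 and 15.8 FPKM in Brg1-sufficient and 11.9 and 18.0 FPKM in Brg1-deficient ILC3s, with overlapping groups. Nr2c1, which encodes its relative TR2, was at 3.56 and 5.40 FPKM against 5.82 and 5.45 FPKM, where the nearest libraries of the groups were almost equal. Nr2f6, which encodes a repressor of interleukin-17 expression in T cells, was at 3.36 and 5.68 FPKM against 3.33 and 3.15 FPKM. Its groups were just apart, and the difference of -0.35 had a 95% interval from -1.06 to 0.37. Nr2c2 and Nr2f6 share exonic sequence with a gene on the other strand. For Nr2c2 it was 4590 of 14935 bases, with Mrps25 at 12.6 to 20.1 FPKM, and for Nr2f6 1622 of 2983 bases, with Ocel1 at 4.33 to 8.35 FPKM, so both levels are uncertain.

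The other 24 receptor genes were low, and none of their libraries exceeded 0.91 FPKM. Of these genes, 12 stayed at or below 0.2 FPKM in all 4 libraries and 8 were listed at 0 in at least 1 library. They include Hnf4a and Hnf4g, receptors of gut and liver epithelium (at or below 0.30 FPKM), the COUP transcription factor genes Nr2f1 and Nr2f2 of stromal cells (at or below 0.50 FPKM), and Nr5a1, Nr5a2, Nr0b1 and Nr0b2 of steroid-making tissue and liver (at or below 0.20 FPKM). Nr6a1, a germ cell receptor gene, lay between 0.57 and 0.80 FPKM, Rorb between 0.15 and 0.59 FPKM, the photoreceptor gene Nr2e3 between 0 and 0.91 FPKM and Nr2e1 between 0.06 and 0.16 FPKM. At such levels and with unknown depth, no difference between the groups was read from these genes.

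The co-regulators that receptors recruit were more abundant than most receptors. Of 12 coactivator genes 10 were tested, and 0 passed an unadjusted p under 0.05 in either direction, with differences from -0.46 to 0.29. Of 8 corepressor genes, all tested, 2 were lower and 0 were higher at that limit. Nrip1, which encodes the ligand-dependent corepressor RIP140, was at 131 and 92.1 FPKM in Brg1-sufficient and 70.8 and 56.9 FPKM in Brg1-deficient ILC3s. Both Brg1-deficient libraries lay below both controls, at a difference of -0.78 (standard error 0.221, unadjusted p = 0.0146, adjusted p = 0.248 from limma). Ncor1, which encodes a corepressor of unliganded receptors, was the highest of the list, at 179 and 162 FPKM against 153 and 168 FPKM, with overlapping groups and a 95% interval from -0.43 to 0.26.

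**Figure D5:**
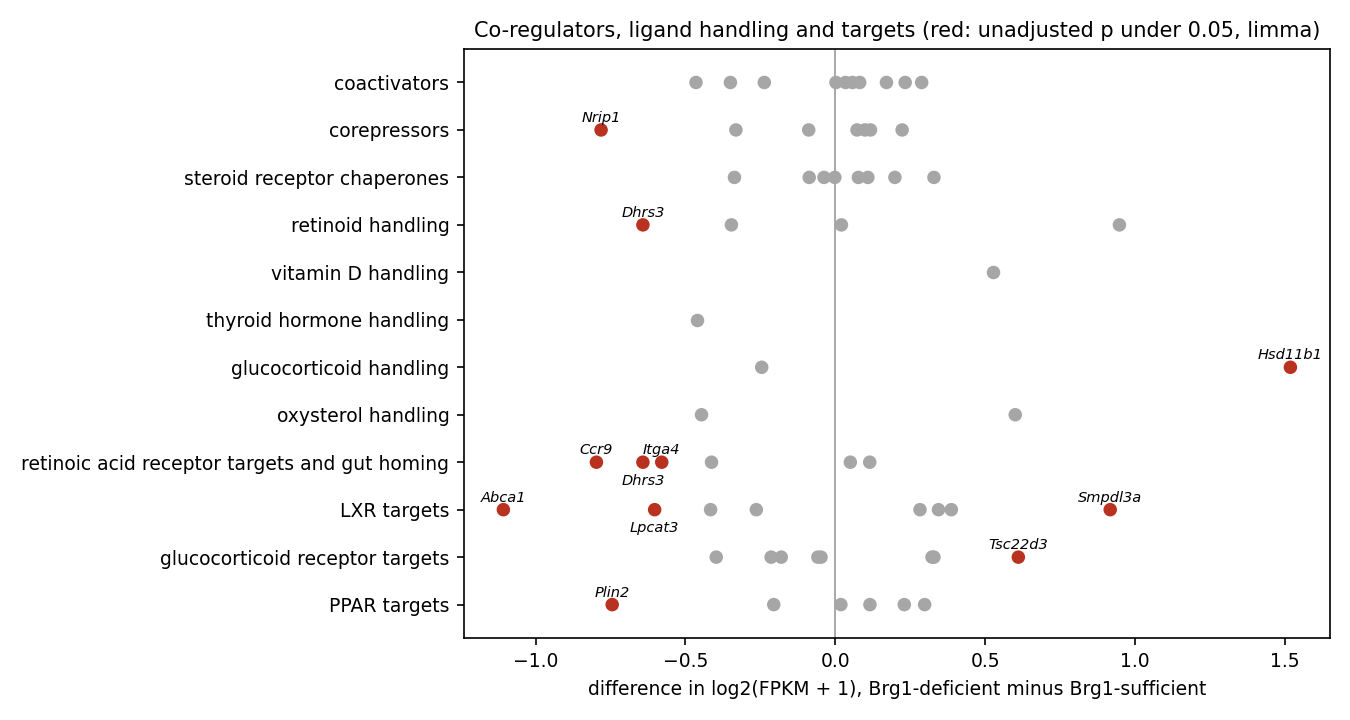
Difference in log2(FPKM + 1) between Brg1-deficient and Brg1-sufficient ILC3s (horizontal axis) for the tested genes of 12 lists of co-regulators, ligand handling and receptor targets, with 1 point for each gene and red for an unadjusted p under 0.05 in limma, leaving out genes not reported here. Hsd11b1 (1.52), Smpdl3a (0.92) and Tsc22d3 (0.61) are the red points to the right of 0, and the other red points, from Abca1 (-1.11) to Itga4 (-0.58), lie to the left.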

How the data were processed

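RNA-seq was analysed in 4 libraries of sorted ILC3s, 2 per donor genotype, which the authors describe as biological duplicates. The authors mapped single-end reads to GRCm38.p5 with STAR 2.5, quantified them with RSEM 1.2 on GENCODE M16, and deposited 1 FPKM value per gene and library. Counts were not used here, so depth per library is unknown and no counting interval was computed.

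Groups came from the sample titles. The main test was limma 3.58.1 in R 4.3.3 (lmFit, eBayes with a trend) on log2(FPKM + 1), over the 14739 genes with a mean above 1 FPKM in either group, with two-sided p-values and Benjamini-Hochberg adjustment over all of them. An exact permutation test of 2 libraries against 2 cannot give a p below 0.33. The scripts were tested on simulated data. The alternatives were a replicate block, log2(FPKM + 0.1), no limit and a limit of 5 FPKM, quantile normalization, no trend, and leaving out each library.

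Receptors were matched by symbol. All tested receptors are named, and so are genes of the pathway lists at an unadjusted p under 0.05; further pathway genes were named for context after their values were seen. The members and lists were chosen with earlier results of these data known. Positions and exons came from GENCODE M21 (GRCm38) and promoter windows from RefSeq (GRCm38.p6). Some genes of the lists are not reported here.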

Additional observations from a re-analysis of the deposited data

How the results depend on the processing

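No receptor gene passed an adjusted p under 0.05 from limma under any alternative run, and the smallest adjusted p outside the fits that left out a library was 0.0676, for Nr3c2 with the replicate block. With the block, 1 receptor gene was higher and 3 were lower at an unadjusted p under 0.05, Nr3c1 joining Vdr and Nr3c2. For the alternative settings, the share of all genes at that unadjusted limit was not counted, so these counts are a description. Same-numbered libraries' deviations from their group means correlated at -0.00039 across genes, and neither the labels nor the methods say that the numbers pair the libraries. With a limit of 5 FPKM, which 8 receptor genes passed, 0 were lower and 0 higher at an unadjusted p under 0.05 from limma. Without overlap, 1 lay below its controls and 4 lay above them, and the share of all genes at this limit was not counted. Vdr, Nr3c2, Pparg, Rxrg and Nr2f6 were under that limit, and Esr1 was above it with an unadjusted p of 0.0827. With 1 library removed at a time, the count at an unadjusted p under 0.05 went from 1 to 4 lower and was 0 higher in each case, from 2 and 1. The count without overlap went from 5 to 8 lower and from 4 to 8 higher, from 6 and 5. A group of 1 library lies apart from the other group more easily than a group of 2. The share of all genes without overlap was not counted for these runs, so nothing is read from the change. The median difference was then between -0.017 and 0.089, from 0.019. Of 88 differences of single receptors under the 6 other settings, 87 kept their sign, but most of these could not change. The block, the fit without a trend and the other limits leave a difference as it was. Quantile normalization could move it little, since the sorted values were already nearly the same. With log2(FPKM + 0.1), the setting that could move the differences more, that of Rara went from -0.0009 to 0.0002. Leaving out 1 library turned the sign of Rara (from -0.31 to 0.31), Rxrb (from -0.0514 to 0.127) and Nr2c2 (from -0.543 to 0.0178). With log2(FPKM + 0.1) the difference of Rxrg went from -1.24 to -3.67 and that of Pparg from -1.06 to -1.85. Only the number added before the log differed there, and the Brg1-deficient means of these genes were 0.005 FPKM (Rxrg) and 0.445 FPKM (Pparg). The cause of the changes with a library left out was not tested. Unknown depth limits what can be said of the receptors below 1 FPKM.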
